A study of Mus musculus with 15 samples.

Results

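Lin28a, Lin28b, Sall4, Trim71, Hmga2, Igf2bp1, Igf2bp2, Igf2bp3 and Nanog are genes known from embryonic stem cells and early embryos, and they were followed here in single cells of the developing mouse heart. They are 9 of the 23154 genes listed in every deposited table, and all 9 passed the filter on low values (at least 5 CPM in at least 2 libraries, where CPM is a gene's counts scaled to the total counts of the cell). The genes were chosen by measured values, namely for library levels that fell with stage and differed between lineages. The stage and lineage values below therefore describe the choice. No p-value is given for them, and counts past the threshold stand only beside the share over all genes. Cells came from hearts of mice carrying the Rosa26tdTomato reporter with either Nkx2-5Cre or Isl1Cre, at 4 stages named by embryonic day, first E7.75, then E8.25, then E8.75 and last E9.25. Single cells were picked by hand after flow sorting or after trypsin digestion alone, and which way applies to which library is not recorded in the labels. This gave 8 groups of 2 libraries each, except Isl1Cre at E9.25 with 1. The lineage was read from the first letter of each title, N or I.

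Nkx2-5 and Isl1 encode transcription factors of cardiac progenitors, and Isl1 is the classical marker of the second heart field. The reporter stays on in a cell and all its descendants once Cre has acted, so a library records the history of its cells and not whether they still make Nkx2-5 or Isl1. Cells of other types that once used either gene can carry the reporter. Paired libraries share an embryo number in their titles, which points to 1 embryo per group. The spread behind the p-values may then be technical, and an effect of lineage or stage cannot be told apart from one of the embryo.

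LIN28 proteins bind precursors of the let-7 microRNAs and block their maturation, in part by recruiting enzymes that add a uridine tail to the precursor. Mature let-7 in turn represses messenger RNAs that carry matches to its seed, the LIN28 genes among them. This mutual repression is a conserved timer of development, in which LIN28 is high early and let-7 is high late. Trim71 encodes an RNA-binding ubiquitin ligase, Hmga2 a chromatin architectural protein, and Igf2bp1 to Igf2bp3 RNA-binding proteins that stabilise or place messenger RNAs. Sall4 encodes a zinc-finger repressor and Nanog a homeobox factor of pluripotent cells.

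The mature let-7 sequences are shown because their shared seed defines the family, with the seed (bases 2 to 8) in capitals. RefSeq (GRCm38.p6) holds 11 entries of the 5p arm of let-7 and miR-98 under 9 names, and all 11 have the same seed.
mmu-let-7a-5p: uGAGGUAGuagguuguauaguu
mmu-let-7g-5p: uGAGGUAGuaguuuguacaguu
mmu-miR-98-5p: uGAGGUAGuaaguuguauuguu
The precursor hairpins are shown because the zinc knuckles of LIN28 recognise the bases GGAG in them. Of 12 hairpins of the family, 9 hold GGAG after the 5p arm, while 44.5% of all 1005 mouse hairpins hold it anywhere. The hairpin of Mirlet7g has the motif, in capitals, at position 56, and that of Mirlet7b has none.
Mirlet7g: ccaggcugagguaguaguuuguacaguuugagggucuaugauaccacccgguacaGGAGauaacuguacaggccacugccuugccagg
Mirlet7b: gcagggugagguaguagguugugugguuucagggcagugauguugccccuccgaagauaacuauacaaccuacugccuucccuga
No row of the tables is named for a let-7 gene, and mature microRNAs have no poly(A) tail, so let-7 itself was not measured.

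Matches to the let-7 seed were searched as CTACCTC, on the strand of the gene, in the longest annotated 3' UTR of each gene (GENCODE M21, GRCm38). Of the 9 genes, 8 held at least 1 match and Nanog held none. Among the 19514 genes of the tables with a 3' UTR, 9.3% held at least 1, and among the 9282 whose 3' UTR is at least as long as the shortest of the 9, 15.7% did. The 9 genes held 21 matches, of which 14 were followed by A, or 0.73 per kb against 0.07 per kb over all 3' UTRs. Lin28b, Trim71, Hmga2 and Igf2bp1 held 4 matches each, a number that 12 of the 19514 genes reached or passed. Lin28a held 2, and Sall4, Igf2bp2 and Igf2bp3 held 1 each. One site is shown for the genes described most fully below, with the match in capitals. The Lin28a site lies on the minus strand at chr4:134005190-134005196, that of Lin28b at chr10:45381023-45381029, that of Sall4 at chr2:168748941-168748947, that of Trim71 at chr9:114512473-114512479, that of Hmga2 at chr10:120364225-120364231 and that of Igf2bp1 at chr11:95961779-95961785, all on the minus strand.
Lin28a: agcctgttgaaCTACCTCatttttgccgat
Lin28b: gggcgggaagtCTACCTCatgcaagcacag
Sall4: ctttaatttatCTACCTCaattatctttat
Trim71: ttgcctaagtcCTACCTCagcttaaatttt
Hmga2: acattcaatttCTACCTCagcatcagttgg
Igf2bp1: tgcgaagtaaaCTACCTCaaggtgtgaagt
These are matches of letters and not measured binding sites.

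**Figure D1:**
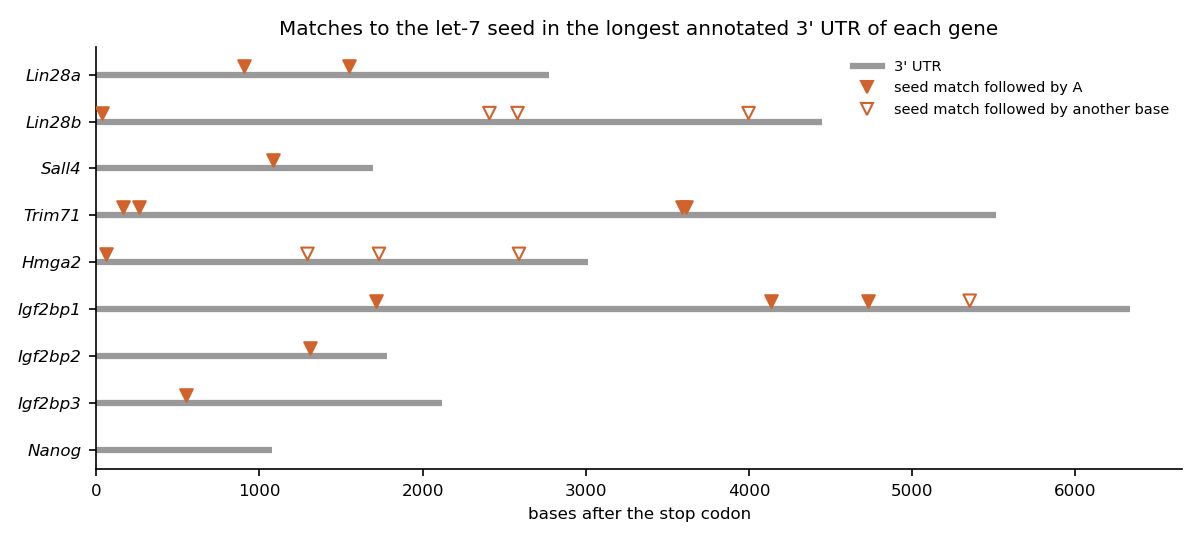
Matches to the let-7 seed (triangles) along the longest annotated 3' UTR (grey bars) of each of the 9 genes, by distance in bases after the stop codon; filled triangles are followed by A. The bars of Lin28b, Trim71, Hmga2 and Igf2bp1 carry 4 triangles each, and that of Nanog carries none.

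The libraries held 61 to 94 kept cells each (1332 of 1400 cells, with at least 2000 counts and 1000 detected genes) and 8165519 to 38321215 counts. Genes of heart muscle were found in every library, and all 10 cardiomyocyte markers were above 0 in each. Their summed level in Isl1Cre lay below that in Nkx2-5Cre at E7.75 (6419 to 7328 against 12565 to 13102 CPM) and at E8.25 (20262 to 20695 against 31929 to 32010 CPM). Endoderm markers summed to 315 to 926 CPM in all 4 E7.75 libraries and to 440 to 504 CPM in Isl1Cre at E8.25, against 19.7 to 85.1 CPM in the others. Blood markers reached 1180 to 1411 CPM in Nkx2-5Cre at E8.75 and at most 220.5 CPM elsewhere. Xist was high in Isl1Cre at E7.75, in both lineages at E8.25 and in Nkx2-5Cre at E9.25, and Y-linked RNA was high in the other groups, so the lineages differed in the sex of the embryo at E7.75 and at E9.25 in opposite ways.

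Lin28a was the gene of the 9 with the steepest change over time. In Nkx2-5Cre its mean level was 229 and 205 CPM in the E7.75 libraries, 90.3 and 102 CPM at E8.25, 62.2 and 132 CPM at E8.75, and 26.3 and 22.9 CPM at E9.25. In Isl1Cre it was 405 and 415 CPM at E7.75, 291 and 243 CPM at E8.25, 128 and 159 CPM at E8.75, and 71.5 CPM in the single E9.25 library. Every Isl1Cre library lay above both Nkx2-5Cre libraries of its stage except at E8.75, where Nkx2-5Cre replicate 2 lay above 1 of the Isl1Cre libraries. The group mean at E7.75 was 8.81 times that at E9.25 in Nkx2-5Cre and 5.74 times in Isl1Cre. The fitted change was -1.88 ± 0.16 log2 units per day (SE) in Nkx2-5Cre and -1.66 ± 0.19 in Isl1Cre, and the Isl1Cre minus Nkx2-5Cre difference over the 4 stages was 1.15 ± 0.13 log2 units.

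Ordered by level, the groups were Isl1Cre E7.75 (410 ± 7.54 CPM, SD of 2 libraries), Isl1Cre E8.25 (267 ± 34.4), Nkx2-5Cre E7.75 (217 ± 16.7), Isl1Cre E8.75 (144 ± 21.9), Nkx2-5Cre E8.75 (97.3 ± 49.7), Nkx2-5Cre E8.25 (96.0 ± 8.05), Isl1Cre E9.25 (71.5, 1 library) and Nkx2-5Cre E9.25 (24.6 ± 2.39). The 2 libraries of Nkx2-5Cre E8.75 overlapped in range with Isl1Cre E8.75, Nkx2-5Cre E8.25 and Isl1Cre E9.25. The other neighbours in this order did not overlap.

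The share of cells with Lin28a counts was also lower at later stages. Lin28a was detected in 96.2% of Nkx2-5Cre cells at E7.75 and in 58.1% at E9.25 (means of 2 libraries), and in 98.4% and 80.2% of Isl1Cre cells. With each cell thinned to 5000 counts, so that depth was equal, these shares were 67.8% and 11.6% in Nkx2-5Cre and 81.8% and 30.2% in Isl1Cre. The top cell gave at most 13.5% of a library's Lin28a sum. The median cell of Nkx2-5Cre had 222 and 193 CPM at E7.75 and 10.9 and 8.07 CPM at E9.25.

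**Figure D2:**
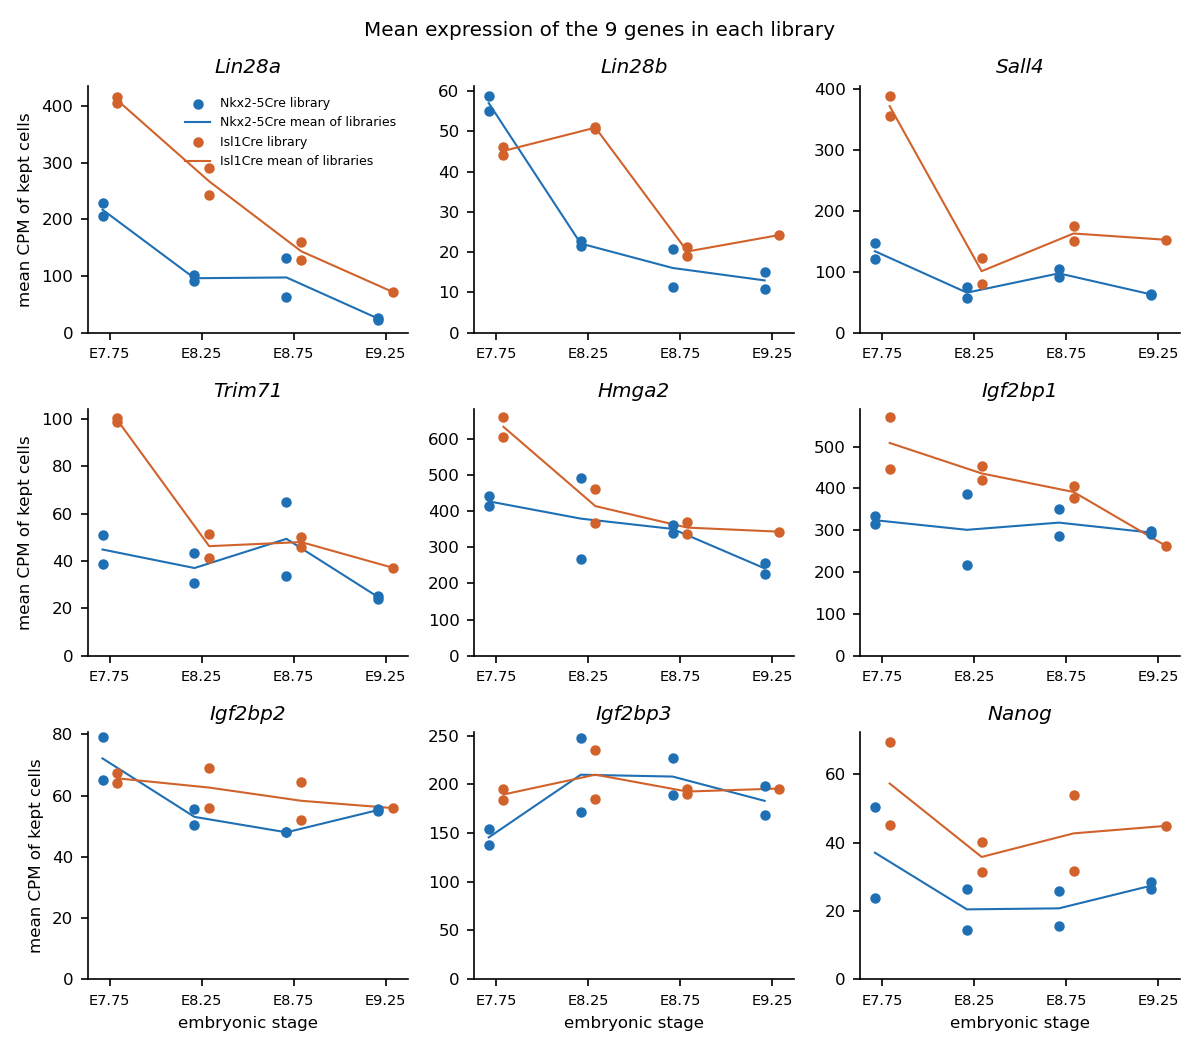
Mean CPM over the kept cells of each library (points) and mean of the libraries of a group (lines) by stage for the 9 genes, Nkx2-5Cre in blue and Isl1Cre in orange; each panel has its own axis from 0. Lin28a falls at each step in Isl1Cre, from 405 and 415 CPM to 71.5 CPM, Sall4 is lowest at E8.25 in Isl1Cre, and Igf2bp3 has no downward course.

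Lin28b, the paralogue with the same RNA-binding domains, took another course. In Nkx2-5Cre it was 55.2 and 58.9 CPM at E7.75, 22.8 and 21.5 CPM at E8.25, 20.8 and 11.4 CPM at E8.75, and 15.02 and 10.95 CPM at E9.25. In Isl1Cre it was 46.3 and 44.1 CPM at E7.75, 50.7 and 51.2 CPM at E8.25, 19.1 and 21.3 CPM at E8.75, and 24.3 CPM at E9.25. Nkx2-5Cre thus lay above Isl1Cre at E7.75, and Isl1Cre lay above Nkx2-5Cre at E8.25, with no overlap at either stage. The large step down came between E7.75 and E8.25 in Nkx2-5Cre and between E8.25 and E8.75 in Isl1Cre. The fitted change was -1.35 ± 0.18 log2 units per day in Nkx2-5Cre and -0.76 ± 0.22 in Isl1Cre. With cells thinned to 5000 counts it was -0.93 and -0.35, and without the single Isl1Cre E9.25 library it was -1.16 in Isl1Cre. Lin28b was sparse, and 1 cell gave 29.4% of its sum in Nkx2-5Cre E9.25 replicate 2.

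Sall4 differed most between lineages at the first stage. Its level at E7.75 was 355 and 388 CPM in Isl1Cre and 120 and 147 CPM in Nkx2-5Cre. At E8.25 it was 79.2 and 123 CPM in Isl1Cre and 56.2 and 75.1 CPM in Nkx2-5Cre. It was then higher again at E8.75, with 150 and 176 CPM in Isl1Cre and 90.9 and 104 CPM in Nkx2-5Cre. At E9.25 it was 152 CPM in Isl1Cre and 64.0 and 61.8 CPM in Nkx2-5Cre. Isl1Cre lay above Nkx2-5Cre without overlap at all 4 stages, which held for no other of the 9 genes. The course was not a steady fall: in both lineages E8.25 lay below E8.75 without overlap. The lineage difference over the stages was 1.04 ± 0.11 log2 units.

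Trim71 and Hmga2 were also higher in Isl1Cre at E7.75. Trim71 had 98.8 and 100 CPM there against 50.8 and 38.8 CPM in Nkx2-5Cre, and Hmga2 had 606 and 660 CPM against 441 and 413 CPM. Both genes overlapped between the lineages at E8.25 and E8.75. At E9.25 Isl1Cre again lay above, with 37.1 CPM against 25.4 and 24.1 CPM for Trim71 and 343 CPM against 257 and 227 CPM for Hmga2. The change per day was -0.44 ± 0.17 and -0.81 ± 0.21 log2 units for Trim71 in Nkx2-5Cre and Isl1Cre, and -0.52 ± 0.12 and -0.55 ± 0.14 for Hmga2. Thinned to 5000 counts, Trim71 in Nkx2-5Cre was at -0.03 ± 0.23, and without the Isl1Cre E9.25 library Hmga2 in Isl1Cre was at -0.87.

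The 3 Igf2bp genes did not share 1 course. Igf2bp1 was 446 and 572 CPM in Isl1Cre at E7.75 and 263 CPM at E9.25, while in Nkx2-5Cre it was 333 and 315 CPM at E7.75 and 292 and 297 CPM at E9.25. Isl1Cre lay above Nkx2-5Cre at the first 3 stages and below it at E9.25. Igf2bp2 stayed within 48.0 to 79.1 CPM in all 15 libraries. Igf2bp3 stayed within 137 to 248 CPM, with a change of 0.18 ± 0.11 log2 units per day in Nkx2-5Cre and 0.03 ± 0.13 in Isl1Cre, so the values go against calling it a gene that falls with stage here.

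Nanog lay between 14.4 and 69.5 CPM in every library and had no clear course, with -0.20 ± 0.24 log2 units per day in Nkx2-5Cre and -0.13 ± 0.28 in Isl1Cre. Its lineage difference was 0.82 ± 0.20 log2 units, with Isl1Cre above Nkx2-5Cre at all stages but E7.75, where they overlapped. In the same libraries Pou5f1, the central factor of pluripotent cells, reached at most 3.5 CPM, Sox2 at most 2.64 CPM and Zfp42 at most 1.44 CPM. Nanog has the processed copies Nanog-ps1 and Nanog-ps2 in GENCODE M21, which share sequence with it. No source used here says how the counting treated reads that match several copies, so the Nanog values are uncertain. Strand use is not stated either, and Hmga2 overlaps 9230105E05Rik and Igf2bp3 overlaps Malsu1 on the opposite strand, so their reads may be shared.

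Over the 9 genes, 5 (Lin28a, Sall4, Igf2bp1, Igf2bp2 and Nanog) had every Isl1Cre library above every Nkx2-5Cre library at 3 or more stages, against 6.36% of the 10665 genes tested. In the fit over all genes, 7 of the 9 passed as higher in Isl1Cre, against 3.51% of genes, and none as lower, against 3.76%. Among changes per day, 4 passed as falling in Nkx2-5Cre, against 12.4% of genes, and 6 in Isl1Cre, against 10.5%. None passed as rising, against 12.8% and 12.7%. These contrasts chose the genes, so nothing is read from the counts.

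Levels were also taken in cells with Tnnt2 at 2000 CPM or more, a range of a cardiac troponin gene that held 926 of the 1332 cells. The genes were chosen with these values too, so a lineage difference in such cells is part of the choice. Lin28a in these cells was 195 and 190 CPM in Nkx2-5Cre and 390 and 393 CPM in Isl1Cre at E7.75, and 93.6 and 103 CPM against 256 and 193 CPM at E8.25. At E8.75 it was 65.7 and 136 CPM against 136 and 162 CPM, so that the nearest libraries were almost equal, and at E9.25 it was 28.9 and 27.4 CPM against 72.9 CPM. The lineage difference was 1.06 ± 0.14 log2 units. For Sall4 it was 0.79 ± 0.13 log2 units, with 224 and 279 CPM in Isl1Cre against 106 and 137 CPM in Nkx2-5Cre at E7.75 and overlap at E8.25. The part of cardiomyocyte number in the lineage difference was not tested, and 91 cells lay between 1500 and 2500 CPM of Tnnt2.

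Lin28b behaved differently among these cells. At E7.75 it was 18.1 and 19.7 CPM in Isl1Cre against 42.5 and 44.7 CPM in Nkx2-5Cre, and at E8.25 it was 40.6 and 44.1 CPM against 19.3 and 10.6 CPM. The E7.75 gap was thus wider than over all cells, a ratio of 0.43 against 0.79. The Isl1Cre values at E7.75 rest on 16 and 23 Tnnt2-high cells. In Tnnt2-high cells the Isl1Cre mean was 18.9 CPM at E7.75 and 24.6 CPM in the single E9.25 library. Lin28b was thus not lower at E9.25 than at E7.75 there, unlike over all cells. Over the 9 genes, 4 (Lin28a, Sall4, Igf2bp1 and Nanog) had all Isl1Cre libraries above at 3 or more stages, against 5.60% of genes. In the fit 2 of the 9, Lin28a and Sall4, passed as higher in Isl1Cre, against 1.45% of 10523 genes, and none as lower, against 1.52%. These values, too, belong to the choice of the genes.

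**Figure D3:**
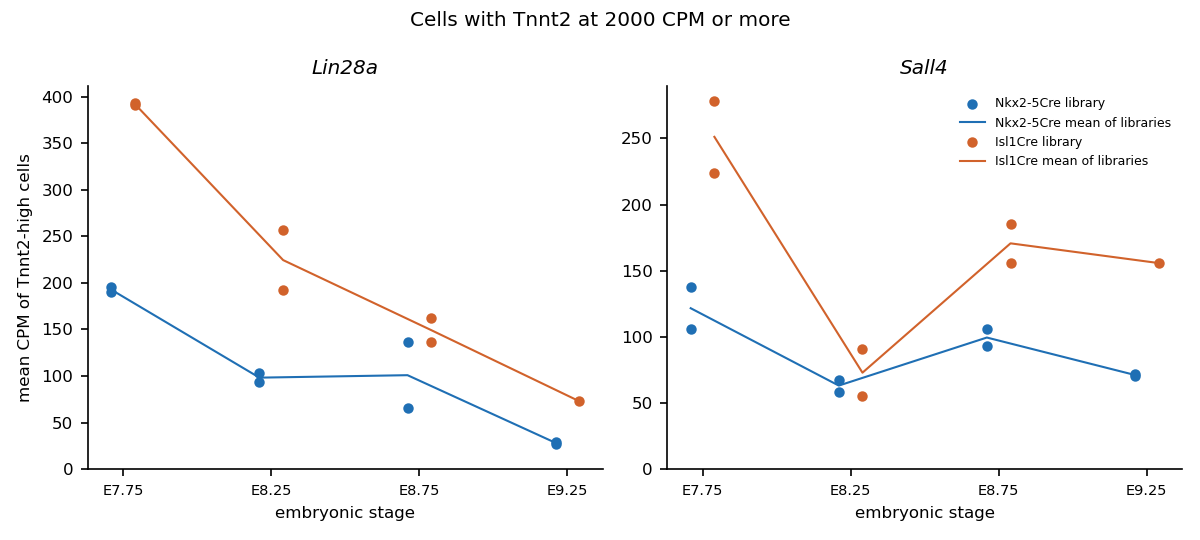
Mean CPM of Lin28a and Sall4 over the cells of each library with Tnnt2 at 2000 CPM or more (points) and mean of libraries (lines) by stage, Nkx2-5Cre in blue and Isl1Cre in orange. Lin28a in Isl1Cre is 390 and 393 CPM at E7.75 and 72.9 CPM at E9.25, each above its Nkx2-5Cre counterparts, while the Sall4 points overlap at E8.25.

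The comparison of Tnnt2-high with Tnnt2-low cells inside each library was not itself used to choose the genes. Its parts were, since the choice used the means over all kept cells and over Tnnt2-high cells. Tnnt2-low cells were also more common early, with 53 of 91 cells in Nkx2-5Cre E7.75 replicate 1 and 13 of 91 in E9.25 replicate 1. The p-values below are therefore not independent of the choice. The comparison holds lineage, stage and embryo constant, and 13 libraries had at least 5 cells on each side. Paired libraries counted as separate units here though they probably share an embryo. The comparison was not refitted with 1 unit per group. Igf2bp1 was lower in Tnnt2-high cells of all 13 libraries, by 0.06 to 1.14 log2 units, and Lin28b was lower in 11 of 13. Igf2bp1 fell by 0.51 ± 0.08 log2 units (adjusted p = 2.65e-05, and 4.08e-06 to 0.0119 over 22 alternatives), and Lin28b by 0.97 ± 0.21 (adjusted p = 0.00122). Igf2bp3 rose by 0.28 ± 0.09 log2 units (adjusted p = 0.0155), higher in 11 of 13 libraries, but missed the threshold under 5 of 22 alternatives. Thus 2 of the 9 genes passed as lower, against 12.0% of the 11635 genes tested, and 1 as higher, against 15.9%.

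Lin28b levels are given here for Tnnt2-high cells and for Tnnt2-low cells outside the marker gates described next, not for all Tnnt2-low cells tested above. Over all Tnnt2-low cells at E7.75 the group means were lower, 52.7 CPM in Isl1Cre and 66.2 CPM in Nkx2-5Cre, so the tested gap was smaller. In Isl1Cre at E7.75 Lin28b was 18.1 and 19.7 CPM in Tnnt2-high cells and 62.0 and 59.5 CPM in Tnnt2-low cells outside those gates. In Nkx2-5Cre at E7.75 the values were 42.5 and 44.7 CPM against 76.8 and 72.0 CPM. The Tnnt2-low cells were above in all 4 of these libraries. Against all Tnnt2-low cells, the 2 libraries in which Lin28b was not lower in Tnnt2-high cells were those of Nkx2-5Cre at E9.25, with differences of 0.04 and 0.49 log2 units.

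Tnnt2-low cells were a mixture whose makeup changed with stage. Of 406 Tnnt2-low cells, 113 had at least 3 endothelial markers and 47 at least 3 endoderm markers at 50 CPM or more, and 247 had neither. These are gates and not cell types, and 29 and 76 Tnnt2-low cells had 2 or 3 of the respective markers. All 33 Tnnt2-low cells of the E9.25 libraries were endothelial-marker cells, while endoderm-marker cells occurred only at E7.75 and in Isl1Cre at E8.25.

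Lin28a levels followed these gates. In Isl1Cre at E8.25 it was 134 and 159 CPM in endothelial-marker cells, 256 and 193 CPM in Tnnt2-high cells, 391 and 338 CPM in Tnnt2-low cells outside the gates, and 464 and 305 CPM in endoderm-marker cells. The library means of endothelial-marker cells lay below those of Tnnt2-high cells, and those of both other kinds of Tnnt2-low cells lay above them, without overlap. In Nkx2-5Cre at E9.25 it was 10.6 and 4.33 CPM in endothelial-marker cells and 28.9 and 27.4 CPM in Tnnt2-high cells. These values rest on few cells, with 6 and 2 endothelial-marker cells in the Isl1Cre E8.25 libraries and 13 and 18 in the Nkx2-5Cre E9.25 libraries.

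Sall4 was highest in endoderm-marker cells of Isl1Cre at E7.75, with 608 and 734 CPM against 224 and 279 CPM in Tnnt2-high cells of the same libraries. Igf2bp1 in endothelial-marker cells of Isl1Cre at E7.75 was 618 and 725 CPM against 316 and 438 CPM in Tnnt2-high cells. These cells had 9 and 6 members for the endoderm gate and 15 and 7 for the endothelial gate. How much they add to the lineage difference was not tested.

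With the endothelial-marker and endoderm-marker cells left out of the low side, 8 libraries from E7.75 and E8.25 remained, and 5 of the 9 genes, Lin28a, Lin28b, Sall4, Trim71 and Igf2bp1, were lower in Tnnt2-high cells in each of the 8. All of these but Trim71 passed the threshold, with paired libraries again counted as separate units. Lin28a fell by 0.41 log2 units (adjusted p = 0.0251), Sall4 by 0.64 (adjusted p = 0.0138), Lin28b by 1.23 (adjusted p = 0.00145) and Igf2bp1 by 0.70 (adjusted p = 0.0119). Among all 10685 genes 4.50% passed as lower and 6.64% as higher, and none of the 9 passed as higher. In Nkx2-5Cre at E8.25 the low side held only 5 and 7 cells. Their median counts were 45312 and 85834, against 196803.5 and 128978 in Tnnt2-high cells. Against all Tnnt2-low cells the Lin28a difference had the opposite sign, 0.43 ± 0.20 log2 units (adjusted p = 0.104), and so had that of Sall4, 0.16 ± 0.21 (adjusted p = 0.60).

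The 2 settings differed by stage as well as by cells. Against all Tnnt2-low cells the Lin28a difference was -0.31, -0.10, 0.04 and -0.05 log2 units in the E7.75 libraries, 0.53 and 0.17 in Nkx2-5Cre and -0.36 and -0.68 in Isl1Cre at E8.25, 1.22, 0.90 and 0.29 at E8.75, and 1.5 and 2.47 at E9.25. In Isl1Cre the E8.25 libraries thus lay below those of E7.75. A fit of this difference against stage, added after the data were seen, gave a change of 1.32 ± 0.29 log2 units per day for Lin28a (adjusted p = 0.0352) and 1.40 ± 0.31 for Sall4 (adjusted p = 0.0355), where 2.65% of genes passed. Paired libraries entered this fit as separate units though they probably share an embryo. Lineage was not a term, and the E9.25 libraries in it were all Nkx2-5Cre, so stage and lineage cannot be fully told apart. The choice of the genes used their stage courses over all cells and in Tnnt2-high cells, so these p-values are not independent of it. Leaving out any of 7 of the 13 libraries ended the call for Lin28a, and any of 8 that for Sall4, with adjusted p up to 0.0915 and 0.0887. Both calls were also lost in 4 of 8 other settings. With a Tnnt2 limit of 4000 CPM, and without the marker-gate cells on the low side, no gene at all passed. Thinned to 5000 counts the change was 0.19 for Lin28a (adjusted p = 0.780) and 1.52 for Sall4 (adjusted p = 0.149), and with a Tnnt2 limit of 4000 CPM it was 0.41 (adjusted p = 0.502) and 0.96 (adjusted p = 0.216).

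**Figure D4:**
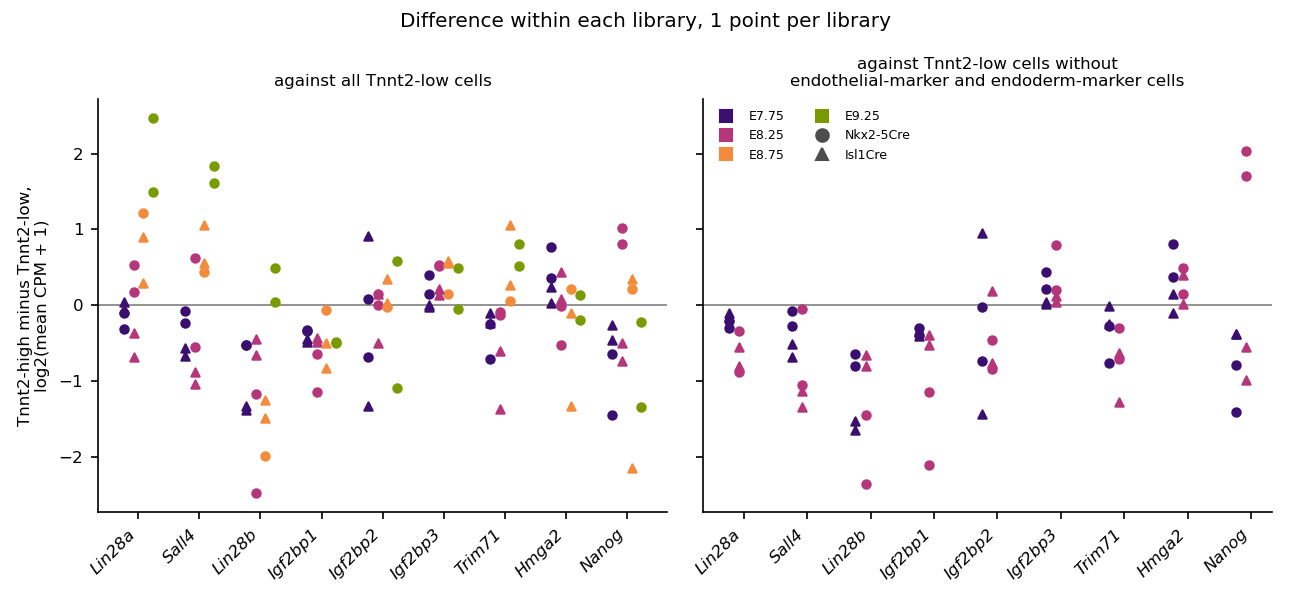
Tnnt2-high minus Tnnt2-low difference of log2(mean CPM + 1) for the 9 genes, 1 point per library, colour for stage and shape for lineage; on the left against all Tnnt2-low cells (13 libraries), on the right without endothelial-marker and endoderm-marker cells (8 libraries). Igf2bp1 lies below 0 in all 13 and all 8 libraries, while Lin28a runs from -0.68 to 2.47 on the left and from -0.88 to -0.10 on the right.

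Across the 15 libraries, the genes of the 9 with courses most like Lin28a were Trim71 (Pearson r = 0.84 of the log2 levels), Hmga2 (0.83) and Lin28b (0.80), and the least like was Igf2bp3 (-0.05). Among 4095 other genes of sufficient level, the 5 most like it were Dnajc11 (0.95), Rrp9 (0.94), Rnd3 (0.93), Nifk (0.92) and Synrg (0.92). These are descriptions over 15 libraries that share stages and embryos. From cell to cell within libraries the genes were nearly unrelated: the median rank correlation of Lin28a with the other 8 ran from -0.01 to 0.14, in sparse counts.

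Other genes of the let-7 pathway did not move as a group. Over all genes, 12.8% rose and 12.4% fell per day in Nkx2-5Cre, 12.7% rose and 10.5% fell in Isl1Cre, and 3.51% were higher and 3.76% lower in Isl1Cre than in Nkx2-5Cre; the counts of listed genes below stand against these shares. With the libraries of a group averaged to 1 unit, as they probably share an embryo, none of the 5 lineage calls named below (Khsrp, Arid3a, Irs2, Dnmt3a and Igf2) passed, with adjusted p of 0.367 to 0.546 by limma and unadjusted p of 0.00288 to 0.0385. The changes per day here and below were not refitted in this way. If the libraries of a group share an embryo, each such change rests on 1 embryo per stage. Its p-value then rests on the spread within embryos. Of 15 tested makers, tailing enzymes and effectors of let-7, 2 rose and 2 fell per day in Nkx2-5Cre, and none rose and 1 fell in Isl1Cre. Their median changes were -0.24 and -0.05 log2 units against -0.02 and -0.01 over all genes. The Argonaute gene Ago3 rose by 1.26 ± 0.36 log2 units per day in Nkx2-5Cre (adjusted p = 0.0157), and Ago2 by 0.54 ± 0.16 (adjusted p = 0.0192). Ago3 was low, with Nkx2-5Cre means of 1.27, 1.54 and 3.92 CPM at E7.75, E8.25 and E8.75. At E9.25 its mean was 8.07 ± 6.36 CPM (SD of 2 libraries), so those libraries lay far apart. Prkra, a Dicer partner, fell by 0.55 ± 0.20 (adjusted p = 0.0481) in Nkx2-5Cre, and the helicase gene Ddx5 fell in both lineages, by 0.24 ± 0.07 (adjusted p = 0.0219) and 0.41 ± 0.09 (adjusted p = 0.00163). Khsrp, which promotes let-7 processing, was the only one to differ between lineages, higher in Isl1Cre by 0.51 ± 0.12 (adjusted p = 0.0110). Zcchc11, a terminal uridylyltransferase recruited by LIN28A, was 38.9 CPM at E7.75 and 38.2 CPM at E9.25 in Nkx2-5Cre, and 38.8 and 53.9 CPM in Isl1Cre, and passed no test.

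Of 16 tested textbook let-7 targets outside the 9, 2 rose and 2 fell per day in Nkx2-5Cre, and 2 rose and 4 fell in Isl1Cre, with medians of -0.14 and -0.10 log2 units. Nr6a1, the germ cell nuclear factor gene, holds 8 seed matches, the most of any gene searched, and fell in both lineages, by 1.31 ± 0.18 log2 units per day in Nkx2-5Cre (adjusted p = 4.77e-05) and 1.55 ± 0.22 in Isl1Cre (adjusted p = 4.18e-05). Its mean was 50.1 CPM at E7.75 and 9.76 CPM at E9.25 in Nkx2-5Cre, and 40.3 and 8.61 CPM in Isl1Cre. Arid3b fell by 0.91 ± 0.13 per day in Nkx2-5Cre (adjusted p = 4.85e-05). Ccnd2, encoding a cyclin, rose in both, by 0.75 ± 0.16 (adjusted p = 0.00173) and 0.76 ± 0.19 (adjusted p = 0.00579). Igf1r, which holds 2 seed matches, also rose in both, by 0.57 ± 0.12 (adjusted p = 0.00153) and 0.41 ± 0.14 (adjusted p = 0.0394). Of the 20 listed targets 14 held at least 1 seed match, while Ccnd2 and Myc held none. Between lineages 1 was higher in Isl1Cre and 1 lower: Arid3a was higher in Isl1Cre by 0.51 ± 0.14 (adjusted p = 0.0277) and Irs2 lower by 1.26 ± 0.36 (adjusted p = 0.0367). In Tnnt2-high cells against Tnnt2-low cells 1 rose and 5 fell, where 15.9% and 12.0% of all genes did, Myc most, by 2.37 ± 0.32 (adjusted p = 4.50e-06), while Arid3b rose by 0.98 ± 0.16 (adjusted p = 6.84e-05).

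Only 8 of 24 pluripotency and epiblast genes passed the filter, and 1 differed between lineages: Dnmt3a, a de novo DNA methyltransferase gene, was lower in Isl1Cre by 0.48 ± 0.12 log2 units (adjusted p = 0.0186). Per day 2 rose and 2 fell in Nkx2-5Cre, and none rose and 2 fell in Isl1Cre. Dnmt3b fell in both lineages, by 1.48 ± 0.32 (adjusted p = 0.00216) and 1.60 ± 0.38 (adjusted p = 0.00470), and the homeobox gene Otx2 fell by 1.95 ± 0.35 (adjusted p = 0.000521) and 1.62 ± 0.42 (adjusted p = 0.00859). Dnmt3b was 46.6 CPM at E7.75 and 11.8 CPM at E9.25 in Nkx2-5Cre and 39.9 and 7.65 CPM in Isl1Cre.

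Of 16 other Sall genes and subunits of NuRD, the repressor complex that SALL4 recruits, in Isl1Cre 1 rose and 7 fell per day, against 12.7% and 10.5% of all genes, among them Sall2, which fell by 1.75 ± 0.36 log2 units (adjusted p = 0.00140), Sall3 by 1.52 ± 0.36 (adjusted p = 0.00403) and Sall1 by 1.03 ± 0.35 (adjusted p = 0.0415). Sall2 in Isl1Cre had means of 9.87, 12.98 and 9.0 CPM at E7.75, E8.25 and E8.75. It had 0.47 CPM in the single E9.25 library, so its fall rests on that library. In Nkx2-5Cre 1 rose and 3 fell, and the methyl-binding subunit gene Mbd2 was the one that rose in both. Sall3 was lower in Tnnt2-high cells by 2.81 ± 0.36 (adjusted p = 2.96e-06).

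Among 8 genes of the IGF axis, Igf2, the growth factor gene whose messenger RNA names the IGF2BP proteins, was lower in Isl1Cre by 0.32 ± 0.08 log2 units (adjusted p = 0.0203). Per day 2 rose and 2 fell in Nkx2-5Cre, and 4 rose and 1 fell in Isl1Cre, with medians of 0.15 and 0.62. H19, the noncoding RNA of the same imprinted locus, fell by 0.89 ± 0.08 per day in Nkx2-5Cre (adjusted p = 4.50e-07). In Isl1Cre its change was -0.19 ± 0.10 (adjusted p = 0.179). The largest rises in Isl1Cre were those of Cd44, by 0.97 ± 0.22 (adjusted p = 0.00291), and Igf2r, by 0.80 ± 0.12 (adjusted p = 5.25e-05). In Tnnt2-high cells Igf1 was lower by 3.95 ± 0.43 (adjusted p = 3.05e-07) and Cd44, an IGF2BP-bound messenger RNA, higher by 2.08 ± 0.32 (adjusted p = 3.22e-05). Of 4 other TRIM genes, 1 rose per day in Isl1Cre, Trim3 by 1.23 ± 0.41 (adjusted p = 0.0371), and no other comparison passed. Trim3 was low in Isl1Cre, with means of 2.01, 2.83 and 3.62 CPM at E7.75, E8.25 and E8.75. It had 9.83 CPM in the single E9.25 library, so the rise rests largely on that library.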

How the data were processed

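Single-cell libraries were made with a modified Smart-seq2 protocol that captures 3' ends, per the labels' protocols. CASAVA 1.8, TopHat2 2.0.12 and HTSeq with the build mm10 are listed in the submitters' processing notes. The deposited values are CPM per gene and cell; 100% of low values were whole multiples of a cell's count step (within 0.1 of a step, up to 20 steps), so counts were recovered. Whether these are reads or molecules is not stated. CPM are not scaled by gene length, so levels were compared within genes.

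Each library was summarised as its mean CPM over kept cells, which weights cells equally. Limma 3.58.1 (R 4.3.3) was fitted to log2(mean CPM + 1) after TMM scaling with 1 mean per group over all 15 libraries, with Benjamini-Hochberg adjustment over all genes and a threshold of 0.05. Fold changes on this scale understate changes of low genes. The lineage contrast averages the 4 stages and the slopes are linear per day. The Tnnt2 comparison had the library as a block. On simulated data with the lineage design and 10637 genes, 95.5% of 2-fold and 59.7% of 1.5-fold changes were recovered. The changed genes were drawn only from genes of higher mean level than the filter asks, so recovery of low genes was not tested. The simulated noise was the spread between libraries of a group, which probably share an embryo. No spread between embryos was added, so these shares do not tell how well changes are found when embryos differ. Alternatives included edgeR 4.0.16 on the recovered counts.

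No cell name or cell profile was shared between libraries, and the libraries of each pair differed beyond counting noise. No doublet caller was run. The members and gene lists were chosen with earlier results of these data known. Named genes were the members, up to 4 called genes per list and contrast by size of change, the 5 genes most like Lin28a, and genes given as values for context, Zcchc11, Pou5f1, Sox2 and Zfp42, chosen after values were seen. Sequences are from RefSeq (GRCm38.p6) and GENCODE M21, the same build as mm10; all 9 genes matched.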

Additional observations from a re-analysis of the deposited data

Results flagged for a closer look

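Lin28b differed between lineages in opposite directions at different stages. The Isl1Cre minus Nkx2-5Cre difference was -0.31 log2 units at E7.75, 1.14 at E8.25 and 0.94 at E9.25, each without overlap of libraries, and the difference between stages was not tested. Igf2bp1 had 0.66 log2 units at E7.75, 0.57 at E8.25 and 0.30 at E8.75 and then -0.09 at E9.25, where Isl1Cre has 1 library, again not tested between stages.

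The Tnnt2-high minus Tnnt2-low difference had a fitted change with stage of 1.32 log2 units per day for Lin28a and 1.40 for Sall4, past the threshold in a test added after the data were seen. It was not past it with all cells (adjusted p = 0.128 and 0.0840), with cells thinned to 5000 counts (0.19, adjusted p = 0.780, and 1.52, adjusted p = 0.149), with a Tnnt2 limit of 4000 CPM (0.41, adjusted p = 0.502, and 0.96, adjusted p = 0.216) or without the marker gates. With that Tnnt2 limit and without the marker gates no gene at all passed. The test counted paired libraries as separate units, had no lineage term and was not independent of how the genes were chosen. The call was lost for both genes when Nkx2-5Cre E7.75 replicate 1 or 2, E8.75 replicate 1, E9.25 replicate 1 or 2, or Isl1Cre E7.75 replicate 1 or 2 was left out, and for Sall4 also without Isl1Cre E8.75 replicate 2. The values without 1 library ran from 1.02 to 1.41 for Lin28a and from 1.24 to 1.53 for Sall4.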

How the results depend on the processing

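Members' lineage differences and changes per day kept their direction under the alternatives run wherever they exceeded their standard error; Igf2bp1, Igf2bp2, Igf2bp3 and Nanog had smaller values that changed sign under at least 1. The lineage difference of Lin28a without 1 library ran from 1.01 to 1.29 log2 units, and that of Sall4 from 0.93 to 1.11. The main counts of genes called were 775 between lineages, 2679 and 2478 per day in Nkx2-5Cre and Isl1Cre, 313 between lineages in Tnnt2-high cells and 3247 for Tnnt2-high against Tnnt2-low cells. With all cells the lineage counts were 486 and, in Tnnt2-high cells, 153. Thinned to 5000 counts the 5 counts were 218, 994, 1129, 39 and 1206; fewer cells and shallower values enter there, and the median of all genes in the Tnnt2 comparison moved from 0.07 to 0.35. With the libraries of a group averaged to 1 unit, 1 gene was called between lineages (877 at an unadjusted p under 0.05). Tnnt2 limits of 1000 and 4000 CPM gave 524 and 148 calls between lineages in Tnnt2-high cells, and the low side without the marker gates gave 1191. The cause of these differences was otherwise not tested. Without 1 library the counts ran from 535 to 924, 1606 to 2796, 1817 to 2843, 108 to 728 and 2865 to 3280. The low ends came without Nkx2-5Cre E9.25 replicate 2 for the Nkx2-5Cre change per day (1707 without E7.75 replicate 2) and without Nkx2-5Cre E8.75 replicate 1 in Tnnt2-high cells, whose high end came without Isl1Cre E7.75 replicate 2. In Tnnt2-high cells the count moved by over 1.5 times without any of 10 libraries: also 148 without Nkx2-5Cre E8.25 replicate 1, 120 and 143 without Nkx2-5Cre E9.25 replicate 1 or 2, 487 without Isl1Cre E7.75 replicate 1, 174 and 134 without Isl1Cre E8.25 replicate 1 or 2, and 155 and 139 without Isl1Cre E8.75 replicate 1 or 2. Same-numbered libraries did not deviate together (r of -0.03 to 0.17 over 21 pairs of groups), so the numbers do not pair them; with the replicate block the counts were 884, 2747, 2453 and 339. EdgeR called 677, 2558 and 2316.

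For the Tnnt2 difference, Lin28a was -0.14 log2 units thinned and -0.41 without the marker gates, and passed with a limit of 1000 CPM (0.68) and without Isl1Cre E8.25 replicate 2 (0.53); without 1 library it ran from 0.26 to 0.53. Sall4 was -0.64 without the marker gates and -0.0048 with at least 10 cells a side. Lin28b missed the threshold when thinned (-0.98, adjusted p = 0.112). Trim71 was 0.11 thinned and -0.15 to 0.051 without 1 library. Hmga2 was -0.0625 without scaling, -0.0178 with all cells, -0.0582 with a limit of 1000 CPM and -0.0533 to 0.122 without 1 library. The change of this difference per day, run on the 8 libraries without the marker gates, was -0.90 for Lin28a and -1.01 for Sall4, over only 2 stages.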
